A study of Mus musculus with 5 samples.

Results

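Cell cycle and proliferation genes were examined in mouse hearts that had been made ischemic and reperfused outside the body, with or without prior blockade of the nuclear receptor REV-ERB alpha. The set was a fixed list of 43 gene symbols, chosen by name and with earlier results of these data known. A probe carrying the symbol alone was found for 41 of them, out of 22180 symbols on the array. Ccne2 and Ccnb1 had no such probe and were not analysed here. The 41 were ordered by role: 7 regulators of G1 and of entry into S phase, 10 genes of S phase and DNA replication, and 24 genes of G2 and mitosis.

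All hearts came from wild-type C57Bl6J mice at zeitgeber time 12, that is, 12 h after lights on. Every heart was mounted on a Langendorff apparatus, which perfuses the isolated organ through the aorta, left to stabilise for 20 min, deprived of flow for 20 min, reperfused for 20 min and frozen. The antagonist group (n = 3 hearts) was from mice given a REV-ERB alpha antagonist intraperitoneally at 10 µM, 4 h and 1 h before perfusion, and the sham group (n = 2 hearts) was from mice without it. The labels give neither the name of the antagonist nor a vehicle injection for sham, age and sex are not stated, and no heart without ischemia was analysed here. The labels call the arrays of a group biological replicates, and RNA was measured with 1 array per heart as log2 expression.

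The cell division cycle is driven by cyclins and cyclin-dependent kinases (CDKs). D-type cyclins with CDK4 and E-type cyclins with CDK2 release E2F factors, which switch on the replication genes of S phase. Later, a complex of B-MYB, MuvB proteins and FOXM1 switches on the genes of G2 and mitosis, whose products build the spindle, separate the chromosomes and divide the cell. The RNAs of this late group are made mainly in cycling cells and are widely used as markers of proliferation. In the adult heart nearly all muscle cells have left the cycle, and most dividing cells belong to the vessel wall, the connective tissue and the immune system.

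The 5 arrays had median log2 values of 3.92 to 3.95. All 12 heart muscle markers, including Myh6 and Tnnt2, had a mean above the array median, with the lowest at the 94.4th percentile of all probes, as fits the labelled tissue. Values are often exactly equal between arrays: 11303 of 15294 tested genes (73.9%) had fewer than 5 different values, and among the 41 cell cycle genes 10 had 5 different values and 5 had the same value on all arrays. Antagonist replicate 2 stood apart in the mean of 8 atrial markers (5.25 above the array median on the log2 scale, against 2.71 to 3.24 on the others). The same held for 7 adipocyte markers (2.62, against 0.81 to 1.03) and 8 mesothelial markers (0.93, against 0.21 to 0.30). It was the strictly highest array for 7 of 8 atrial, 5 of 7 adipocyte and 7 of 8 mesothelial markers. Upk3b is in both the atrial and the mesothelial list. Results that turn on single arrays are given without each in turn.

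The mitotic genes were mostly lower, and the S-phase genes had no shared sign. Of the 24 genes of G2 and mitosis, 19 were lower in the antagonist hearts, 3 were higher and 2 had equal values, with a median difference of -0.14 on the log2 scale (antagonist minus sham). Of the 10 genes of S phase, 5 were lower, 2 higher and 3 equal, with a median of -6.2e-05. Of the 7 genes of G1, 6 were lower and 1 higher (85.7% lower, beside 79.2% in mitosis), with a median of -0.050. Without sham replicate 2 the G1 median was 0.041. Over all 22180 symbols 46.3% were lower and 46.2% higher, with a median of 0 and an interquartile range from -0.068 to 0.068. No gene passed the test: 0 of 41 cell cycle genes, and 0% of 15294 tested genes, had a limma adjusted p under 0.05. The smallest limma adjusted p among the 36 cell cycle genes tested was 0.64. The words lower and higher below therefore give the sign of a measured difference, not a change that passed. The genes and roles were chosen with earlier results of these data known. Counts by sign or without overlap, here and below, describe the 5 arrays and carry no test.

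**Figure D1:**
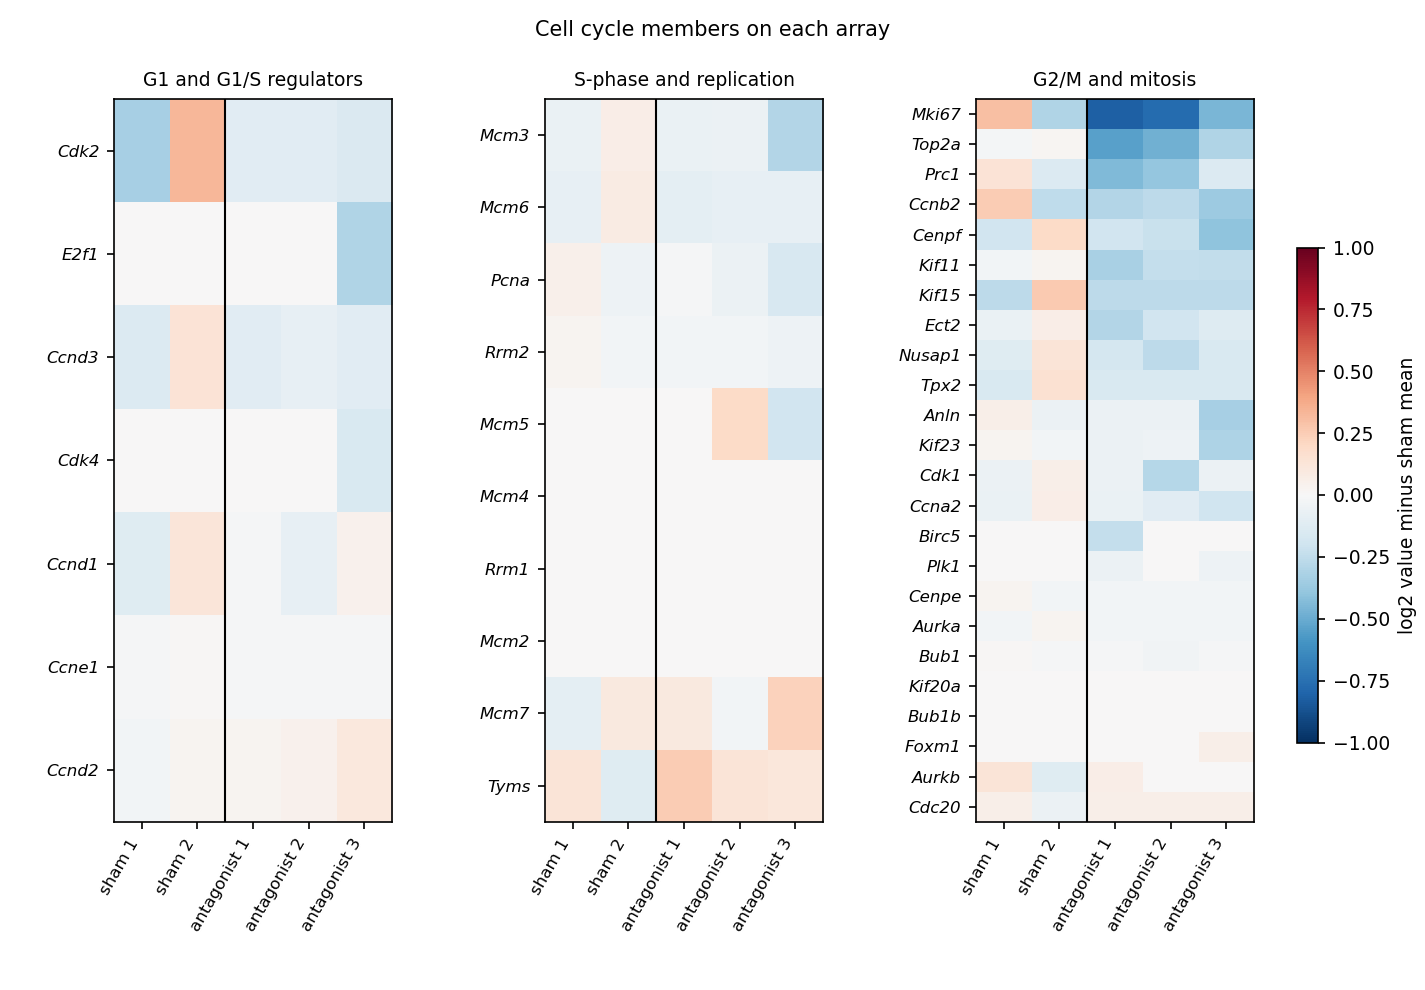
Log2 value of each cell cycle gene on each array minus its sham mean (colour, from -1 to 1), in panels by role and ordered by difference, with a vertical line between the 2 sham and 3 antagonist arrays. Blue cells gather at the top of the mitotic panel, led by Mki67 and Top2a, while most cells of the S-phase panel are near 0.

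Among the mitotic genes, 7 of 24 had all antagonist values below both sham values, and 0 of 24 had them above. Over all symbols the groups did not overlap in this direction for 5.56%, and in the upward direction for 5.14%. The 7 were Mki67, Top2a, Kif11, Kif23, Nusap1, Ccnb2 and Ect2. They were also the only mitotic genes with 5 different values, the other 17 holding ties. Among all 5103 symbols with 5 different values the groups did not overlap downward for 14.9%. At an unadjusted limma p under 0.05, 2 of the 36 tested genes were lower (Top2a and Kif11) and 0 were higher, beside 2.37% and 2.23% of all tested genes. Kif11 entered the test through its sham values, with an antagonist mean of 3.40 under the level filter of 3.42, so nothing is drawn from this count.

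Mki67 (Entrez Gene 17345) encodes Ki-67, a protein that coats mitotic chromosomes and is the standard stain for cycling cells. It measured 6.61 and 6.01 in the sham hearts and 5.49, 5.54 and 5.85 in the antagonist hearts. Both sham values were above all antagonist values, though the sham pair differed from each other by more than the gap between the groups. The means were 6.31 ± 0.42 (SD, n = 2) in sham and 5.63 ± 0.20 (SD, n = 3) with the antagonist, a log2 difference of -0.68 ± 0.24 (SE, limma adjusted p = 0.64) or 1.61-fold more in sham. Without sham replicate 1 the difference was -0.38, and without sham replicate 2 it was -0.99.

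Top2a (Entrez Gene 21973) encodes topoisomerase II alpha, which untangles DNA before chromosomes separate. Its values were 4.04 and 4.08 in sham and 3.52, 3.58 and 3.76 with the antagonist, so the sham pair lay close together and apart from all treated hearts. The probe was low, with a mean at -0.14 relative to the array median and at the 47.6th percentile of all probes. The log2 difference was -0.44 ± 0.09 (SE, limma adjusted p = 0.64), or 1.35-fold more in sham, and it stayed between -0.51 and -0.39 with any array left out.

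Kif11 (Entrez Gene 16551), the kinesin that pushes the spindle poles apart, measured 3.64 and 3.69 in sham and 3.34, 3.43 and 3.42 with the antagonist. Its groups were separate as well, and it had the smallest unadjusted limma p of the cell cycle genes (0.0029; adjusted p = 0.64). The difference was -0.27 ± 0.04 (SE), between -0.29 and -0.24 with any array left out. Its antagonist mean of 3.40 lay under the level filter of 3.42, so Kif11 entered the test through its sham values. For these 3 genes the exact two-sided permutation p was 0.10, the smallest that 10 divisions of 5 arrays allow.

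Genes of the mitotic exit and of cytokinesis, the final cut between daughter cells, were next. Ect2, which activates RhoA at the division plane, measured 4.34 and 4.48 in sham against 4.12, 4.22 and 4.28, a difference of -0.20 ± 0.07 (SE, limma adjusted p = 0.64). Prc1, which bundles the microtubules of the central spindle, measured 4.33 and 4.05 in sham against 3.75, 3.80 and 4.05 (-0.32 ± 0.14). Kif23, a motor of the central spindle, measured 4.44 and 4.38 against 4.35, 4.36 and 4.10 (-0.15 ± 0.10). Ect2 and Kif23 were separate between the groups, while for Prc1 the antagonist replicate 3 reached the lower sham value. Anln, which links actin and myosin in the contractile ring, measured 4.21 and 4.09 against 4.09, 4.09 and 3.82 (-0.15 ± 0.11), and tied values joined the groups.

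Cyclins and their kinase pointed the same way with less separation. Ccnb2, a B-type cyclin of mitosis, measured 5.62 and 5.11 in sham and 5.07, 5.10 and 5.0 with the antagonist, so that 1 sham heart carried the difference of -0.31 ± 0.18 (SE, limma adjusted p = 0.64). Without sham replicate 1 the difference shrank to -0.054. Ccna2, the A-type cyclin of S phase and G2, measured 4.01 and 4.15 against 4.01, 3.97 and 3.88 (-0.13 ± 0.07). Cdk1, the kinase of mitotic entry, measured 4.24 and 4.35 against 4.24, 4.01 and 4.24 (-0.13 ± 0.10). Both pairs of groups touched at the lower sham value.

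Kinetochore and spindle genes varied more in which sham heart was high. Cenpf, a large kinetochore protein, measured 5.40 and 5.78 in sham and 5.40, 5.37 and 5.19 with the antagonist (-0.27 ± 0.15 SE, limma adjusted p = 0.64), or -0.080 without sham replicate 2. Nusap1, which stabilises spindle microtubules, measured 3.77 and 4.02 against 3.72, 3.63 and 3.74 (-0.20 ± 0.09). Tpx2, the activator of Aurora A, was at 3.72 on 4 arrays and at 4.03 on sham replicate 2, so its difference of -0.15 was 0 without that heart. The same held for Kif15, a spindle kinesin, at 2.45 on 4 arrays and 2.97 on sham replicate 2, which was under the level filter and not tested. In contrast to Mki67, Prc1 and Ccnb2, for which sham replicate 1 was the higher, these 4 genes were higher in sham replicate 2.

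The remaining mitotic genes differed little. Plk1 and Aurka, kinases of spindle assembly, and Cenpe, a kinetochore motor, differed by -0.033, -0.025 and -0.025. Kif20a and Bub1b, the latter a spindle checkpoint kinase, had 1 value each on all 5 arrays. Cdc20, which activates the anaphase-promoting complex, was higher by 0.058 because sham replicate 2 was at 3.82 and every other array at 3.94. Bub1 (-0.023), Birc5, which encodes survivin (-0.081), Aurkb (0.025) and Foxm1, the factor that activates many of these genes (0.021), lay under the level filter and were not tested. No detection calls were used here, so it is unknown which of the low probes measured RNA: 13 of the 24 mitotic genes had a mean above the array median, against 10 of 10 in S phase and 7 of 7 in G1.

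**Figure D2:**
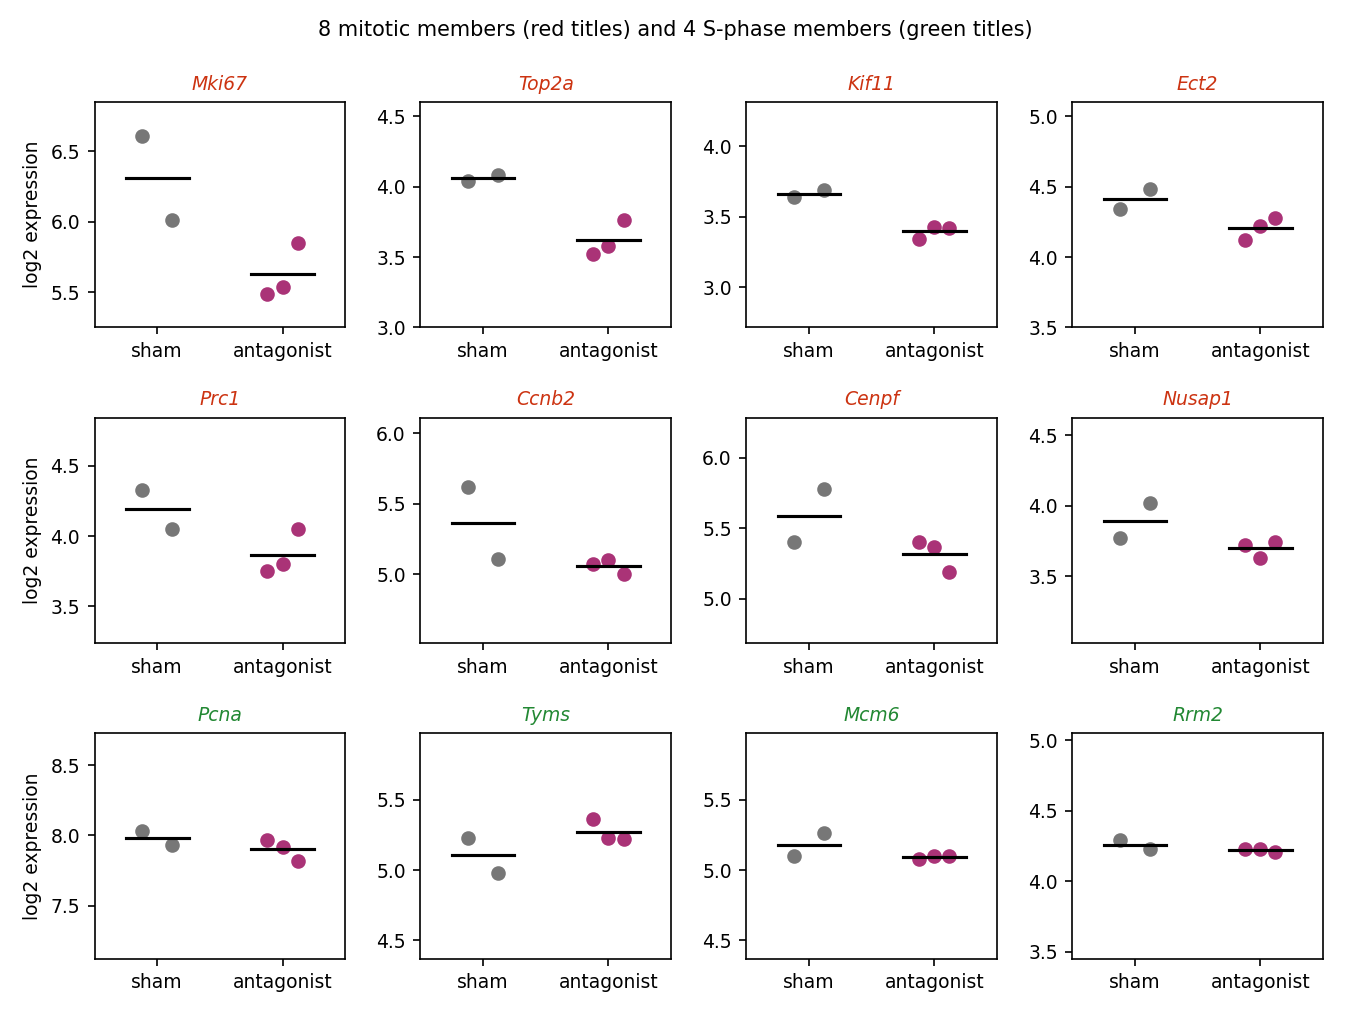
Log2 expression on each array (points) and group mean (lines) for 8 mitotic genes (red titles) and 4 S-phase genes (green titles), in sham (n = 2) and antagonist (n = 3) hearts; every panel spans 1.6 log2 units. The 8 mitotic genes shown are the tested ones with the largest downward differences, and the median difference over all 24 was -0.14. Mki67, Top2a and Kif11 show no overlap between the groups, while for Tyms, Mcm6 and Rrm2 the groups meet.

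The replication genes gave no shared direction. Pcna, the sliding clamp of DNA polymerase, measured 8.03 and 7.93 in sham and 7.97, 7.92 and 7.82 with the antagonist, a difference of -0.079 ± 0.062 (SE, limma adjusted p = 0.65) with overlapping groups. Tyms, which makes thymidylate, was the S-phase gene of smallest p and went the other way, at 5.23 and 4.98 against 5.36, 5.23 and 5.22 (0.17 ± 0.10, limma adjusted p = 0.64), or 0.044 without sham replicate 2. Its antagonist values overlapped the upper sham value.

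The MCM helicase genes, whose 6 products form the ring that unwinds DNA, also differed in sign. Mcm2 and Mcm4 had 1 value each on all arrays (5.02 and 5.26). Mcm3 measured 4.79 and 4.93 in sham against 4.79, 4.80 and 4.57 (-0.14 ± 0.10, SE), and Mcm6 measured 5.10 and 5.26 against 5.08, 5.10 and 5.10 (-0.086 ± 0.056). Mcm7 was higher by 0.10 ± 0.11, and Mcm5, with 4.58 on both sham arrays, measured 4.58, 4.77 and 4.39 with the antagonist. No MCM gene separated the groups.

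Of the subunits of ribonucleotide reductase, which makes deoxynucleotides, Rrm1 was at 6.28 on all arrays. Rrm2, the subunit made in S phase, measured 4.29 and 4.23 in sham against 4.23, 4.23 and 4.21 (-0.034 ± 0.022, SE). A second Rrm2 probe was at 1.74 on every array.

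Regulators of G1 lay above the array median, from the 58.2th percentile of all probes for Ccne1 to the 96.5th for Ccnd2, and gave no separation downward. Ccnd2, a D-type cyclin, measured 8.72 and 8.77 in sham and 8.77, 8.79 and 8.85 with the antagonist, the 1 cell cycle gene with all antagonist values above both sham values, by less than the rounding shown (0.056 ± 0.032, SE, limma adjusted p = 0.64). Cdk4, their partner kinase, was at 7.46 on 4 arrays and 7.31 on antagonist replicate 3, and E2f1, the S-phase activator, was at 4.62 on 4 arrays and 4.32 on the same array. The differences of -0.050 for Cdk4 and -0.10 for E2f1 were thus 0 without that heart.

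In Ccnd1, Ccnd3 and Cdk2 the sham hearts lay on either side of the treated hearts. Ccnd1 measured 7.30 and 7.54 in sham against 7.41, 7.34 and 7.46, and Ccnd3 measured 6.21 and 6.49 against 6.24, 6.27 and 6.24. Cdk2 measured 5.73 and 6.40 against 5.95, 5.95 and 5.92, so its difference was -0.46 without sham replicate 1 and 0.21 without sham replicate 2. Ccne1, an E-type cyclin, differed by -0.015 and was 0 without sham replicate 2. Although 6 of 7 genes of this group were lower (median -0.050), the median was 0.041 without sham replicate 2.

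**Figure D3:**
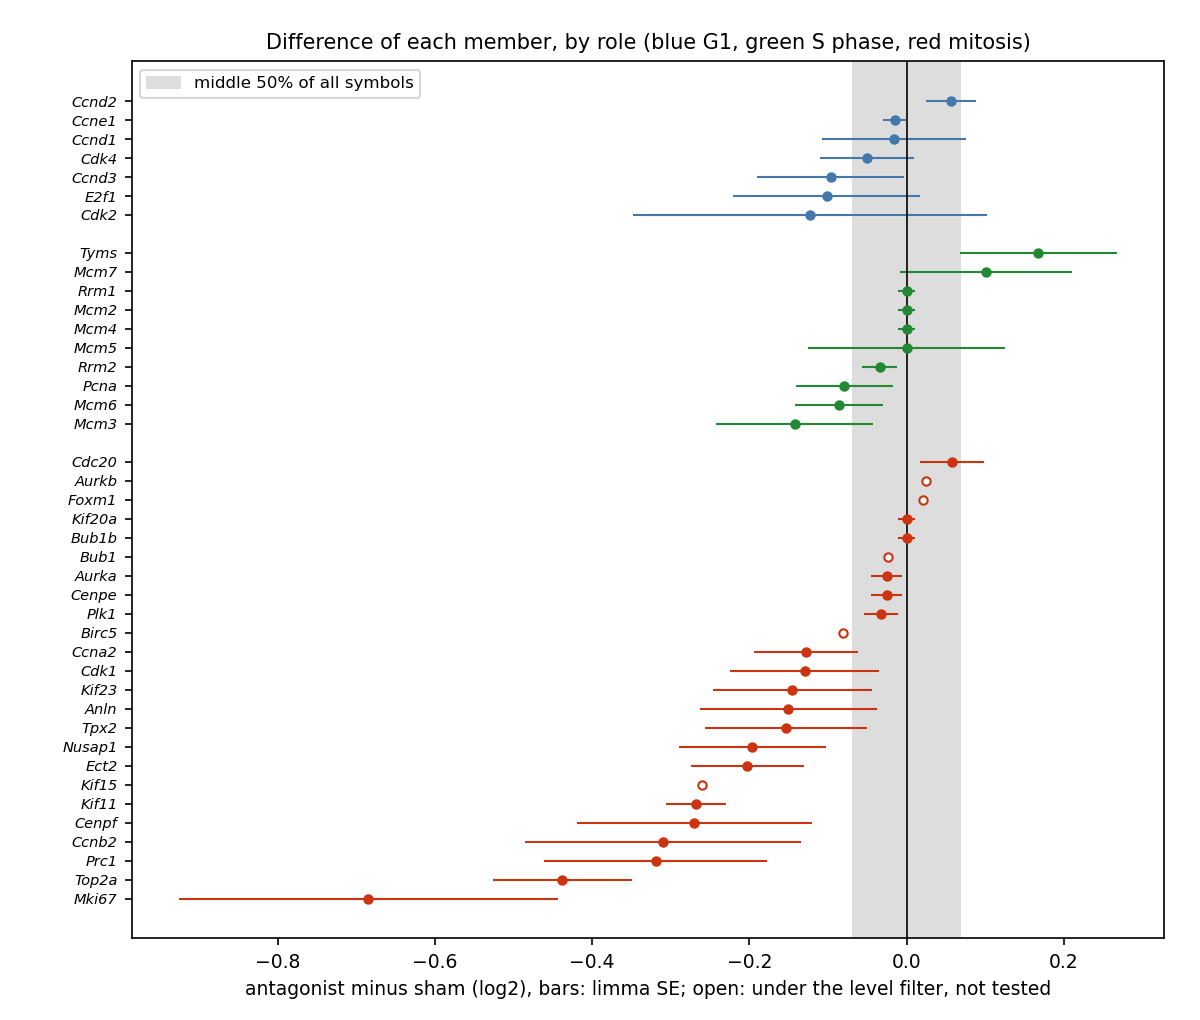
Antagonist minus sham (log2, horizontal axis) of each cell cycle gene by role, with limma standard errors; open points were under the level filter and not tested, and the grey band is the interquartile range of all symbols (-0.068 to 0.068). Most mitotic genes lie left of the band, from -0.081 for Birc5 to -0.68 for Mki67, while the other roles lie around it.

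Set against the array median, mitosis was lower in the treated hearts, while S phase had no shift that held in both its median and its mean. The median mitotic gene lay 0.069 and 0.12 above the array median in the sham hearts, and at 0.011, 0 and -0.032 relative to it in the antagonist hearts. The median S-phase gene lay 1.11 and 1.08 above it in sham and 1.13, 1.12 and 1.12 with the antagonist, so that all treated hearts lay slightly above both sham hearts. The mean over the S-phase genes overlapped between the groups, at 1.34 and 1.38 in sham and 1.38, 1.36 and 1.32 with the antagonist. The gap between the medians was 1.04 and 0.97 in sham and 1.11, 1.12 and 1.15 with the antagonist, wider in each treated heart by a mean of 0.13. These genes were examined with an earlier difference in proliferation genes known, so the gap is a description of the 5 arrays and carries no test. In whole tissue, fewer cycling cells and less mitotic RNA per cell cannot be told apart.

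The size of the mitotic difference depended on single hearts and its sign did not. The median was -0.10 without sham replicate 1, -0.073 without sham replicate 2, and between -0.16 and -0.11 without an antagonist heart, with 17 to 19 of 24 genes lower in each case. The count of higher genes was 1 to 3. For S phase the median stayed between -0.019 and 0. Leaving out a sham heart made calls appear, 6 of 36 genes without sham replicate 1 (Ccnd3, Cdk2, Mcm6, Aurka, Tpx2, Cdc20) beside 8.62% of all tested genes, and 3 without sham replicate 2 (Cdk2, Ccnb2, Cenpe), beside 13.5%. In these fits 1 sham array is assumed to vary like the antagonist arrays, many of which hold tied values, and Cdk2 was called with opposite signs.

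**Figure D4:**
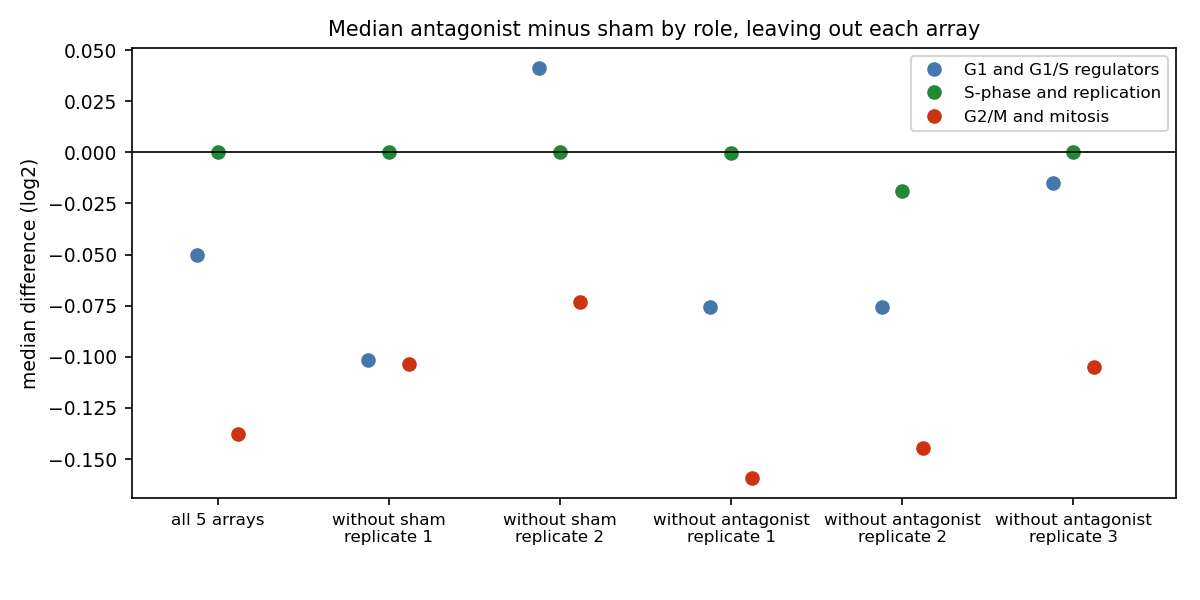
Median antagonist minus sham (log2) over the genes of each role, with all 5 arrays and with each array left out; points are medians over 7, 10 and 24 genes. The mitotic median stays between -0.16 and -0.073, the S-phase median near 0, and the G1 median crosses 0 without sham replicate 2.

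Further cell cycle genes, from lists that do not include the 41, had medians nearer 0. Of 41 other mitotic genes 25 were lower, 10 higher and 6 equal, with a median of -0.040, and in 3 of 41 (7.32%) all antagonist values were below sham, near the 5.56% of all symbols. The median of this list was 0 without sham replicate 2 (20 lower, 13 higher) and -0.0028 without antagonist replicate 2 (21 lower, 12 higher), so it rested on single arrays. The 3 genes of smallest limma p there encode subunits of condensin, which compacts chromosomes: Ncaph (4.40 and 4.20 in sham against 4.18, 4.15 and 4.11, -0.15 ± 0.07 SE), Smc2 (-0.16 ± 0.07) and Smc4 (-0.34 ± 0.20). For Smc2 the groups met at a shared value, and for Smc4 they overlapped. A further condensin gene of the list, Ncapd2, differed by -0.051 ± 0.15 (SE) with overlapping groups. In this list and the further cell cycle lists of replication genes and of E2F factors, 0 genes had a limma unadjusted p under 0.05.

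Of 32 other replication genes 19 were lower, 9 higher and 4 equal, with a median of -0.010. The share lower was 59.4%, near the 61.0% of the other mitotic genes. The chromatin assembly gene Chaf1a (-0.091 ± 0.042, SE), the origin-firing kinase gene Cdc7 (-0.071 ± 0.036) and the licensing inhibitor gene Gmnn (0.11 ± 0.07) had the smallest limma p. A list of 19 genes held E2F factors and their partners, RB proteins, MuvB proteins, Mybl2 (which encodes B-MYB), Myc and Mycn. Some of these form the DREAM complex, which holds cell cycle genes silent in resting cells. Of the 19, 8 were lower and 10 higher (median 0.0047). E2f6, a repressor of E2F targets, measured 7.75 and 8.03 in sham and 8.25, 8.09 and 8.20 with the antagonist (0.29 ± 0.11, SE, limma adjusted p = 0.64), with all treated hearts above both sham hearts. E2f4, the main E2F of DREAM, differed by -0.047, and Lin9, of the MuvB core, by -0.13, where sham replicate 1 alone was high. None of the 3 lists gave a gene past the threshold.

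Markers of cell types that could hold the dividing cells were read from the same arrays. Of 8 fibroblast markers 6 were lower and 1 higher with the antagonist (median -0.13). Their mean level above the array median was 3.88 and 4.16 in sham and 3.78 to 3.98 in the treated hearts, overlapping ranges. Of 8 smooth muscle and pericyte markers 7 were lower and 1 higher (median -0.11), with mean levels of 4.11 and 4.27 in sham and 4.03 to 4.15 with the antagonist, which also overlapped. Without sham replicate 1 the medians were -0.20 for fibroblast and -0.22 for smooth muscle and pericyte markers, and without sham replicate 2 they were -0.035 and -0.016. Without antagonist replicate 2 they were -0.21 and -0.18. Both lists had the sign of the mitotic median in each of these cases, and their part in that difference was not tested.

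Of 10 endothelial markers 6 were higher and 4 lower (median 0.044), and of 9 macrophage and monocyte markers 4 were higher and 5 lower (median -0.011). Lymphocyte markers (10 measured) and neutrophil markers (9 measured) lay on average 0.61 to 0.72 and 0.75 to 0.82 below the array median on all arrays, with Cd3e at 2.70 on all 5 and S100a8 at 2.08 to 2.18. Of 5 erythroid markers Klf1 and Epb42 had 1 value each on all arrays, Slc4a1 (4.28 and 4.28 in sham against 4.36, 4.38 and 4.29) and Hemgn (0.031) were higher, and Tfrc was lower by a difference of -0.13. Without antagonist replicate 2, the heart with high atrial, fat and mesothelial markers, the median of the 24 mitotic genes was -0.14. That heart was the strictly lowest array for 3 of these 24 genes and for 11 of the 41 other mitotic genes, and the part of its other tissue markers in these values was not tested.

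The promoters of these genes were compared because most mitotic genes were lower while the replication genes had no shared sign. A RefSeq table (GRCm38.p6) held windows of 300 bases, from 250 before to 50 after a start, for 34 of the 43 genes and for 27018 genes in all. Searched on both strands were the cell cycle genes homology region (CHR, TTTGAA or the palindrome TTCGAA), the CCAAT box (CCAAT), E2F sites (TTTCCCGC, TTTGGCGC, TTTCGCGC or TTTGCCGC), the REV-ERB and ROR core motif (TAGGTCA) and the E-box (CACGTG). The CHR is known as the element bound by the MuvB complexes in mitotic promoters, and CCAAT is bound by NF-Y. In 2 of 38 windows of these genes a match of one motif overlapped a match of another.

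A CHR was present in the windows of 16 of 20 mitotic genes (80.0%), in 2 of 9 S-phase genes (22.2%) and in 0 of 5 G1 genes, against 21.7% of all genes in the table. CHR and CCAAT box occurred together in 14 of 20 mitotic genes (70.0%) and in 8.61% of all genes. E2F sites showed the opposite distribution, with 4 of 9 S-phase genes (44.4%), 2 of 20 mitotic genes (10.0%) and 2.61% of all genes. The REV-ERB and ROR core motif was found in 2 of 34 genes (5.88%), Anln and Mcm2, beside 2.97% of all genes, and the E-box in 3 of 34 (8.82%) beside 8.09%. A match describes letters in these windows and does not show binding.

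**Figure D5:**
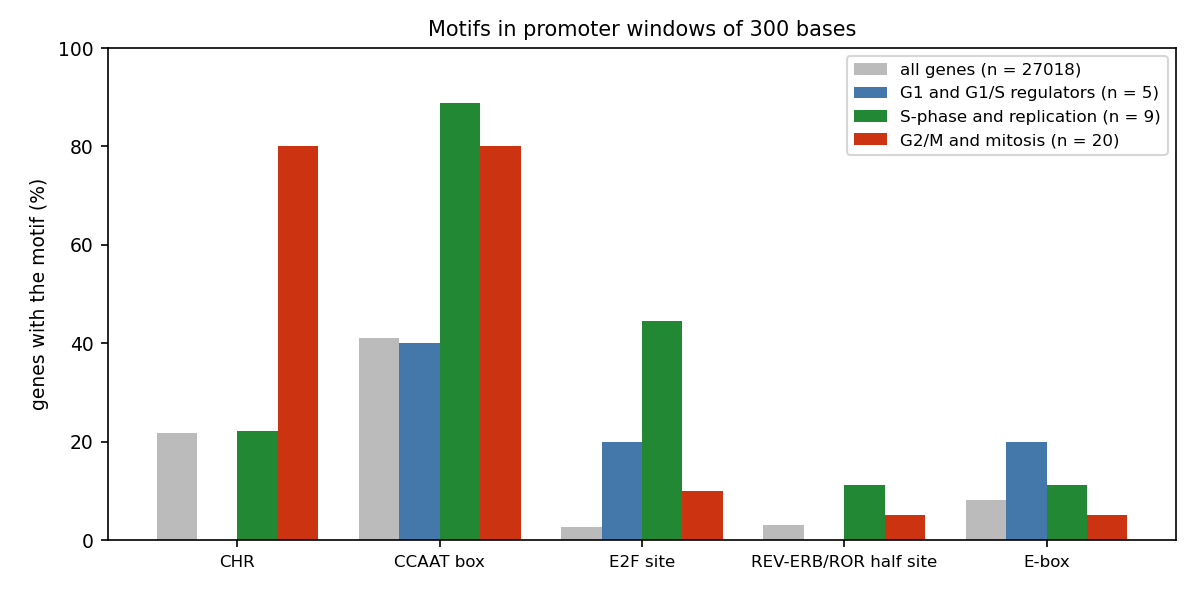
Share of genes (percent, bars from 0) with at least 1 match of each motif on either strand in promoter windows of 300 bases, for all 27018 genes and for the genes of each role (n = 5, 9 and 20). The CHR bar is at 80.0% for mitotic genes and near 22% for S-phase genes and for all genes, while E2F sites are most frequent in S-phase genes.

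The windows of 5 of the 7 mitotic genes that were lower in the antagonist hearts without overlap are shown, 4 with a CHR (Top2a, Kif11, Mki67, Ccnb2) and Nusap1, which has none. That of Mcm6, the S-phase gene with the most E2F matches, is set beside them, and most S-phase genes had no E2F match. Each reads 5′ to 3′ on the gene's own strand, and capitals mark CHR, CCAAT and E2F matches on either strand.
Top2a (chr11:99024140-99024439, minus strand): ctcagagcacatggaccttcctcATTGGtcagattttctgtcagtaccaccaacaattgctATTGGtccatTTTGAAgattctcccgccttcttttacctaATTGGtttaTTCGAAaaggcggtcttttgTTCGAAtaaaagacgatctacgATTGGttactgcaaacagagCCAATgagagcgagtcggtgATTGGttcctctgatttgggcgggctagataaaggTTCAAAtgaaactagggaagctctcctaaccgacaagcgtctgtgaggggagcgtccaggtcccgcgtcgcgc
Kif11 (chr19:37376132-37376431, plus strand): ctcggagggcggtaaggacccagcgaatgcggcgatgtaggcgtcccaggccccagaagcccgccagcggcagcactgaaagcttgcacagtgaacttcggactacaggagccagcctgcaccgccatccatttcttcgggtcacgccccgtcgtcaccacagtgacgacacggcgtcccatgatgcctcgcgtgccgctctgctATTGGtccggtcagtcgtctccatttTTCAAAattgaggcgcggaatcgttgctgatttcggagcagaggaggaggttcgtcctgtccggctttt
Mki67 (chr7:135716330-135716629, minus strand): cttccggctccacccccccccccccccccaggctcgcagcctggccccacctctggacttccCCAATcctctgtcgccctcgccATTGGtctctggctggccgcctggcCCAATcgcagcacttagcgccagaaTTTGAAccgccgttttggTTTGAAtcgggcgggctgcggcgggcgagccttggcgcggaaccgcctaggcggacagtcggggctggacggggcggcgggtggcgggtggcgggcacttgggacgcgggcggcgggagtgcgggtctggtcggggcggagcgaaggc
Ccnb2 (chr9:70421505-70421804, minus strand): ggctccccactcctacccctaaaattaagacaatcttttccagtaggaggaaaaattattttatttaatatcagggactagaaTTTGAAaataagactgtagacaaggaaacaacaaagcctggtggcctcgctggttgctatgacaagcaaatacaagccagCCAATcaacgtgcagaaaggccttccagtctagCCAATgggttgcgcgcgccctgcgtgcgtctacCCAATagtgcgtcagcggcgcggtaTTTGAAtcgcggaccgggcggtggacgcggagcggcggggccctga
Nusap1 (chr2:119618048-119618347, plus strand): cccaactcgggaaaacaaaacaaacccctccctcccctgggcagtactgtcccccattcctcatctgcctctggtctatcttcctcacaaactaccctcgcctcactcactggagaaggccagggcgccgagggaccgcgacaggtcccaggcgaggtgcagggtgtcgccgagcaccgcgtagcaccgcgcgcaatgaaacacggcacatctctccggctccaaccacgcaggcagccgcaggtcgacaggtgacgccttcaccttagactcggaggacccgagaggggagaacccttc
Mcm6 (chr1:128359656-128359955, minus strand): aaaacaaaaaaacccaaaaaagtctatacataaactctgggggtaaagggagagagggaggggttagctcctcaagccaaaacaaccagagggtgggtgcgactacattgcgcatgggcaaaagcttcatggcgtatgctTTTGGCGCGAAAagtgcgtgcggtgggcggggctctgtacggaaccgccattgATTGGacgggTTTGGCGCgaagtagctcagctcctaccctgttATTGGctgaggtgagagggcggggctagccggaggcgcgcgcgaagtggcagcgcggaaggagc
Top2a held 4 CHR and 6 CCAAT matches, Mki67 2 and 3, Ccnb2 2 and 3, and Kif11 1 and 1, and none of the 4 held an E2F match. Nusap1 held no match of the 3 motifs. Mcm6 held 3 E2F matches, 2 of them overlapping on opposite strands of 1 stretch, with 2 CCAAT matches and no CHR. Differences of mitotic genes with and without a CHR overlapped. The 16 with one ranged from -0.68 (Mki67) to 0.058 (Cdc20) with a median of -0.18, and the 3 measured without one, Nusap1, Birc5 and Cenpe, ranged from -0.20 to -0.025 with a median of -0.081.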

How the data were processed

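Total RNA of 5 hearts (300 ng each) was labelled with an Affymetrix whole-transcript kit, per the labels' protocols. The authors' deposited values are log2 expression made with RMA, per the submitters' processing notes; for the RMA version, probe set library and build: not given in the sources used here. Of 41345 probes, 23521 carried 1 symbol in the platform annotation. Per symbol the probe with the highest mean over the 5 arrays was kept. Genes whose mean reached 3.42, the 40th percentile over probes, entered the test (15294), made with limma 3.58.1 in R 4.3.3 (lmFit, eBayes, two-sided, no covariates, Benjamini-Hochberg over all tested genes, threshold 0.05). Genes with 1 value on all arrays have no variance, which limma offsets from 0. Counts and medians of lists cover every measured gene, filtered or not.

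Named per array were, by rule, the 4 tested genes of smallest p and the 2 of highest mean in each role and, of the further lists, the 3 of smallest p; other genes given per array were chosen after their values were seen. The genes, roles and lists were chosen with earlier results of these data known. The fit was tested on simulated data. Precision is limited by the number of arrays. Alternatives covered the level filter, normalization, probe choice, variance model, array weights, a replicate block, ties and leaving out each array.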

Additional observations from a re-analysis of the deposited data

How the results depend on the processing

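The count of genes called by limma was 0 with every level filter, normalization, probe choice and variance model tried, with array weights and with the replicate number as a block (0 of 15294 in the fit as reported, where 704 had an unadjusted p under 0.05). Leaving out single arrays gave 0 to 2058 genes called and 0 to 6 of the cell cycle genes. The median difference of the 41 genes (-0.079) ranged from -0.088 to -0.038 with single arrays left out, that of the 24 mitotic genes (-0.14) from -0.16 to -0.073, and the S-phase minus mitotic gap (0.13) from 0.091 to 0.16. With the replicate block, which leaves antagonist replicate 3 without a partner and so sets it aside, the median was -0.038 for the 41 genes and -0.11 for the mitotic genes. Same-numbered arrays deviated from their group means with correlations of -0.11 and 0.027, so the numbers were not taken as pairs. Over genes with 5 different values the medians were -0.20 (10 of the 41 genes), -0.27 (7 of the 24 mitotic genes) and -0.079 (S phase, Pcna alone). Those 7 were the mitotic genes without overlap between the groups, so their median describes genes already set apart. The only mitotic genes above the 60th percentile were Mki67, Cenpf and Ccnb2. Their median of -0.31 was the difference of Ccnb2, which was -0.054 without sham replicate 1. Differences of 4 cell cycle genes reversed in sign. Mcm5 was at 0.0011 with median centring, 0.0053 with array weights and 0.093 with the replicate block, and between -0.093 and 0.093 with single arrays left out. With single arrays left out Ccnd1 ranged from -0.14 to 0.11, Ccnd3 from -0.23 to 0.041 and Cdk2 from -0.46 (adjusted p = 0.010) to 0.21 (adjusted p = 0.030), the ends being the fits without sham replicate 1 and 2. For the other tested cell cycle genes 0 differences reversed. The cause of these shifts was not tested. Signal over background was not assessed, since no detection calls were used.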
